A study of Homo sapiens with 4 samples.

Results

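The 7 genes described here encode heat shock transcription factors, a regulator of them, and proteins that carry a small or collagen-specific heat shock protein name. They are HSF1, HSF2, HSBP1, HSPB1, CRYAB, HSPB11 and SERPINH1, taken by symbol from a table of 16057 genes, and all 7 were found in it. Their levels were compared between MM.1S cells that received 350 nM JG342 and MM.1S cells that received the solvent DMSO, both for 26 h. MM.1S is an established human multiple myeloma line, JG342 is an allosteric inhibitor of the chaperone HSP70, and each treatment had 2 libraries of total RNA, numbered 1 and 2. Both groups come from the same line and differ, per the labels, only in the agent added. The question set by the design is which transcripts differ between cells given JG342 and cells given DMSO. Inhibition of HSP70 itself was not measured in these libraries.

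HSF1 is the main activator of the heat shock response. In unstressed cells it is held inactive in complexes with HSP70 and HSP90 chaperones. When damaged proteins occupy those chaperones, HSF1 forms trimers and binds heat shock elements, which are inverted repeats of the bases GAA in the promoters of chaperone genes. HSF2 is a related factor that can form mixed trimers with HSF1, and HSBP1 is a small coiled-coil protein that binds HSF trimers and dampens them. HSPB1 (also called HSP27) and CRYAB (alpha-B crystallin) are small heat shock proteins, which hold unfolding proteins without using ATP and pass them to HSP70. SERPINH1 (also called HSP47) is a chaperone of the endoplasmic reticulum that binds procollagen and is a known HSF1 target. HSPB11 carries a family name but lacks the alpha-crystallin domain, and works as a subunit of the intraflagellar transport complex that builds cilia. The RefSeq gene table lists the accession of HSPB11 under the symbol IFT25.

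HSPB1 and SERPINH1 were the members that passed the test, in opposite directions, so the bases before their start sites are shown for comparison. Each is the stretch of 250 bases up to the base before the start site, 5′ to 3′, from RefSeq (GRCh38.p14). HSPB1 is read on the plus strand at chr7:76302423-76302672, and SERPINH1 on the plus strand at chr11:75562003-75562252, for the first of its listed start sites. Capitals mark matches to a heat shock element pattern: the short patterns GAANNTTC and TTCNNGAA, which read the same on both strands, and the 13-base long pattern GAANNTTCNNGAA with its reverse complement TTCNNGAANNTTC, which contains both short ones.

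HSPB1: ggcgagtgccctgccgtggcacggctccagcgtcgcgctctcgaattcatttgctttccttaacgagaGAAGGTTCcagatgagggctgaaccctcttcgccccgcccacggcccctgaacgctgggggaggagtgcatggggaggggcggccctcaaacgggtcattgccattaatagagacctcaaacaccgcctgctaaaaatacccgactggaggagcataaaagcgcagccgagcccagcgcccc

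SERPINH1: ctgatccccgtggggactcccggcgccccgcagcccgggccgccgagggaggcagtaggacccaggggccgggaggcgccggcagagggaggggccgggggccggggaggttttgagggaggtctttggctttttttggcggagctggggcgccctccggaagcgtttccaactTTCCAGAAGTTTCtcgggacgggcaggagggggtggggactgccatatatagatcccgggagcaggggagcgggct

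The HSPB1 stretch held 1 short match, 182 to 175 bases before the start site, and no long match. The SERPINH1 stretch held 1 long match, 76 to 64 bases before the start site. The other listed start site of SERPINH1 and the windows of HSF2 and HSBP1 held no match to these letters, and HSF1, CRYAB and HSPB11 had no entry in the promoter table. A match is a description of the letters, and binding was not measured. For shares over many genes, a gene was counted if the 250 bases before any of its listed start sites held a match. Genes with more listed start sites thus had more stretches to match. Over 27305 genes with an entry, 0.557% held the long pattern and 14.0% held a short one. Among the 28 HSF1 target genes with an entry (a list described further on), 7 held the long pattern and 17 a short one (60.7%).

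The deposited table gives no unit, and its values were read as TPM, a level per transcript length scaled to a constant library total. They express each gene as a share of the library, and in bulk RNA fewer cells expressing a gene and less RNA per cell cannot be told apart. The libraries summed to between 994463 and 994718 TPM, with 1118 to 1418 genes listed at 0. Plasma cell markers matched the labelled cell type: all 9 listed genes were above 1 TPM on average, with a summed level of 4454 and 5209 TPM with DMSO and 4820 and 5209 TPM with JG342. Single markers moved apart within that sum: IRF4 and PRDM1 rose (0.77 and 0.36 in log2 units, limma adjusted p 0.000986 and 0.0410) and TNFRSF17 fell (−0.44, limma adjusted p 0.0472). Mature B cell markers (2 of 4 in the table) summed to at most 0.26 TPM and fibroblast markers (3 of 3) to at most 0.22 TPM in each library. The sums were 3.21 to 7.84 TPM for T cell markers (2 of 3 in the table), 37.4 to 46.2 TPM for myeloid markers (3 of 3), 4.42 to 8.56 TPM for epithelial markers (3 of 3) and 7.71 to 11.4 TPM for erythroid markers (3 of 3). The myeloid sum was almost all LYZ, the T cell sum almost all CD3E and the erythroid sum almost all HBB. No marker in the table was at 0 in all 4 libraries. The part of these markers in the results was not tested.

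**Figure D1:**
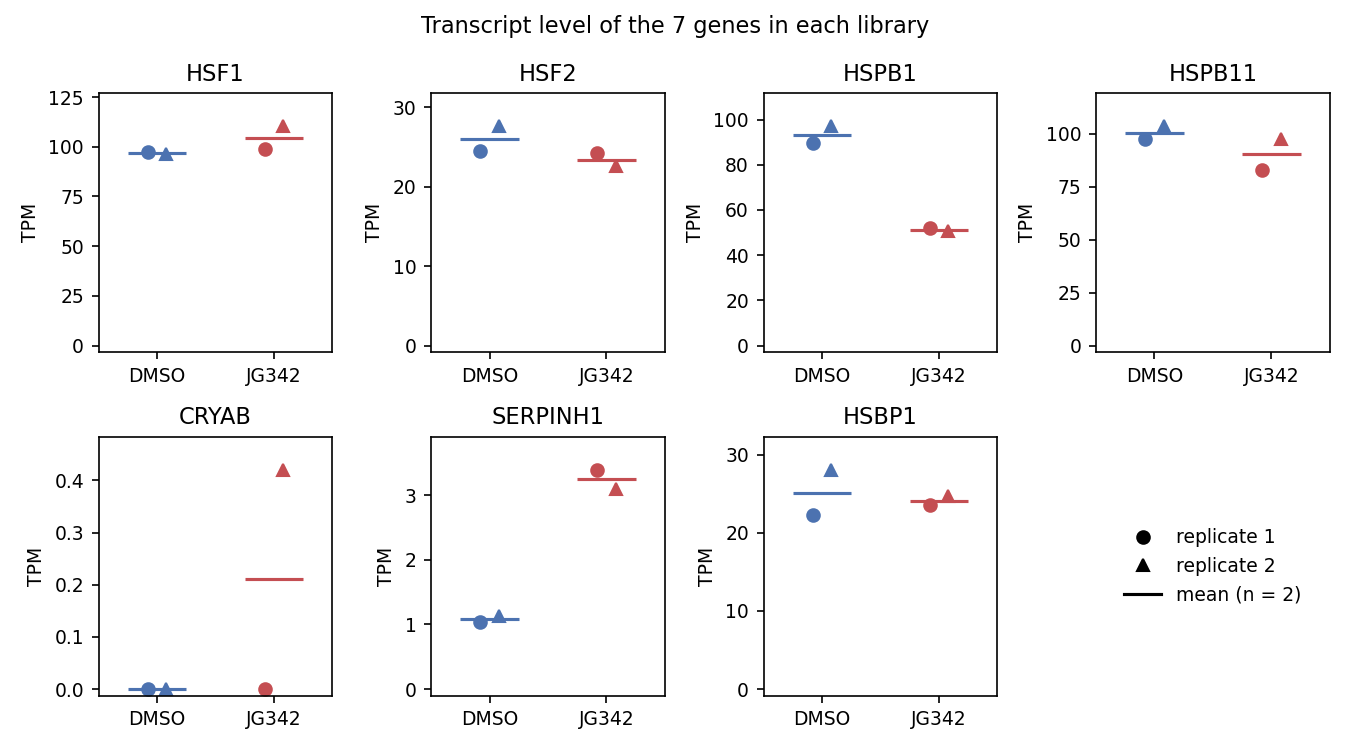
Transcript level in TPM (vertical axes, each from 0 with its own scale) of the 7 genes in each of the 4 libraries, DMSO in blue and JG342 in red. Circles are replicate 1, triangles replicate 2 and lines the mean of 2 libraries. HSPB1 lies at 89.7 and 97.0 TPM with DMSO against 52.0 and 50.6 TPM with JG342, and SERPINH1 at 1.03 and 1.13 against 3.39 and 3.10 TPM.

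On the TPM scale, which is per length, the members of the DMSO libraries fell into 3 tiers. HSPB11, HSF1 and HSPB1 had the highest levels, with means of 100.4, 97.1 and 93.3 TPM. Their values overlapped between neighbours, HSPB11 with HSF1 and HSF1 with HSPB1, so their order is not separated by the replicate spread. HSF2 and HSBP1 came next, with means of 26.1 and 25.1 TPM and overlapping values. SERPINH1 was far lower at a mean of 1.08 TPM, and CRYAB was listed at 0 in both libraries. With JG342 the order of the upper tier was HSF1, HSPB11, HSPB1, and none of these 3 overlapped, with lowest and highest values of 98.8 and 110.3 TPM for HSF1, 82.9 and 97.6 TPM for HSPB11 and 50.6 and 52.0 TPM for HSPB1.

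Differences were tested with limma on log2(TPM + 1) over the 12042 genes whose mean reached 1 TPM, and 6 of the 7 members were among them. At a limma adjusted p under 0.05, 2 of these 6 passed, 1 higher and 1 lower with JG342. Of all fitted genes 18.4% passed, 10.8% as higher and 7.62% as lower. With the replicate number as a block 34.9% of the fitted genes passed, and the members that passed were the same 2. Higher genes made up 58.7% of those that passed, and 44.6% after the libraries were scaled to equal medians. Both members that passed did so under every scaling tried. The count over all genes moved with single libraries, from 2221 to 1060 without DMSO replicate 1 and 773 without DMSO replicate 2, whereas the same count for the members stayed at 2.

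The heat shock factors themselves were not separated between treatments by the test. HSF1 (NM_005526) measured 97.6 and 96.6 TPM with DMSO and 98.8 and 110.3 TPM with JG342. Both JG342 values lay above both DMSO values, the nearest by little, and only JG342 replicate 2 stood clearly higher. The log2 difference was 0.10 ± 0.10 SE, with a 95% interval from −0.12 to 0.33 (limma adjusted p 0.507). Part of its transcript is uncertain, since 6.49% of it overlaps exons of DGAT1 and 6.21% an antisense transcript, both on the opposite strand, and strand use in the counting is not given in the sources used here.

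HSF2 (NM_001135564) measured 24.5 and 27.6 TPM with DMSO and 24.3 and 22.6 TPM with JG342. The JG342 values were both below the DMSO values, but the libraries numbered 1 were almost level. The log2 difference was −0.15 ± 0.12 SE, with an interval from −0.43 to 0.13 (limma adjusted p 0.439). Non-overlap of this kind is common in these data, at 62.1% of fitted genes, and it held for 4 of the 6 fitted members.

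Other genes of the HSF family were low or variable. HSF4, which acts in lens development, measured 16.1 and 10.7 TPM with DMSO and 19.5 and 11.7 TPM with JG342. The libraries numbered 1 were the higher ones in both treatments, and the log2 difference was 0.19 ± 0.25 SE (limma adjusted p 0.637). Another annotated transcript (AC074143.1) holds 21.3% of the HSF4 transcript, so its level is uncertain. HSFX4 measured 2.69 and 1.67 TPM with DMSO and 2.28 and 3.38 TPM with JG342 (limma adjusted p 0.455), and its transcript matches HSFX3 over its whole length, so reads cannot be assigned securely. HSFX3 was listed at 0 in both DMSO libraries and at 0.53 and 0.65 TPM with JG342, below the filter. HSFX1 stayed at or below 0.44 TPM and HSF5 at or below 0.05 TPM in every library. None of the 4 fitted HSF genes passed in limma, beside 18.4% of all fitted genes. At an unadjusted limma p under 0.05 the count was also 0, beside 33.6% of all fitted genes. With 4 genes this count says little about the family.

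HSBP1 (NM_001537), the negative regulator of HSF trimers, measured 22.2 and 28.0 TPM with DMSO and 23.6 and 24.6 TPM with JG342. The JG342 values lay inside the DMSO range. The log2 difference was −0.05 ± 0.14 SE, with an interval from −0.36 to 0.27 (limma adjusted p 0.844), and it was 0.08 between libraries numbered 1 and −0.18 between those numbered 2. For these 3 factors and regulators the intervals leave room for differences in either direction, so a lack of change was not shown.

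HSPB1 (NM_001540) was the member with the clearest difference. Its DMSO values were 89.7 and 97.0 TPM, and its JG342 values 52.0 and 50.6 TPM. The groups were far apart and the JG342 libraries close to each other. The mean fell from 93.3 ± 5.13 TPM (SD, n = 2) to 51.3 ± 0.997 TPM, a ratio of 0.550. The log2 difference was −0.85 ± 0.10 SE, with an interval from −1.08 to −0.62 (limma adjusted p 0.00127), and it was lower in both same-numbered pairs, by −0.77 and −0.92. Only 0.714% of the fitted genes had a log2 difference this low or lower. A processed pseudogene, HSPB1P1, matches 28.1% of the HSPB1 transcript at 97.3% identity, so some reads could be assigned to either.

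CRYAB (NM_001289807), the other member with an alpha-crystallin domain, was listed at 0 in both DMSO libraries and in JG342 replicate 1. It was at 0.42 TPM in JG342 replicate 2. By the approximate worth of a read described with the processing, that value corresponds to about 2.03 reads. CRYAB did not reach the filter, and no test or fold is given. Other small heat shock protein genes with an alpha-crystallin domain in the table were near 0 as well. HSPB6, HSPB7, HSPB8 and HSPB9 did not exceed 0.55 TPM in any library. HSPB2, HSPB3, CRYAA and ODF1 were not found in the table under these symbols. HSPB8, which works with BAG3 in selective autophagy, was at 0.21 and 0.11 TPM with DMSO and listed at 0 with JG342. HSPB1 was thus the one gene with an alpha-crystallin domain above 1 TPM on average among the 6 in the table.

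HSPB11 (NM_001316935) measured 97.3 and 103.4 TPM with DMSO and 82.9 and 97.6 TPM with JG342. JG342 replicate 2 overlapped the DMSO values, and JG342 replicate 1 lay below them. The log2 difference was −0.16 ± 0.11 SE, with an interval from −0.41 to 0.09 (limma adjusted p 0.359). The interval does not overlap that of HSPB1, but a difference between genes was not tested.

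Because HSPB11 is a subunit of intraflagellar transport complex B, the other genes of that complex were read from the same fit. Of 16 listed genes 15 were in the table, and all 15 were fitted. None passed in limma after adjustment, and 3 did at an unadjusted p under 0.05, 2 higher and 1 lower, below the 33.6% of all fitted genes at that level. With the replicate number as a block, 4 passed, 3 higher and 1 lower (26.7%, beside 34.9% of all fitted genes). The median log2 difference was 0.19, against 0.03 for all fitted genes, with single values between −0.58 and 0.58. The nearest to the threshold was CLUAP1, at 7.21 and 6.00 TPM with DMSO and 8.98 and 11.8 TPM with JG342 (limma adjusted p 0.0520; 0.00177 with the block, where the variance prior was infinite, and 0.0478 with the block and equal medians, where it was finite). It is named for that position, which was seen in the data. IFT27, the direct binding partner of HSPB11, measured 14.5 and 12.5 TPM with DMSO and 13.5 and 18.1 TPM with JG342 (limma adjusted p 0.422). HSPB11 lay above each of these partners in every library, and the next highest, IFT20, did not exceed 49.2 TPM.

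SERPINH1 (NM_001207014) was higher with JG342, from a low level. Its DMSO values were 1.03 and 1.13 TPM, and its JG342 values 3.39 and 3.10 TPM. The groups did not overlap, and the spread within each was small beside the gap. The mean rose from 1.08 ± 0.0707 TPM (SD, n = 2) to 3.25 ± 0.205 TPM, a ratio of 3.005. On the log2(TPM + 1) scale, which compresses low values, the difference was 1.03 ± 0.19 SE, with an interval from 0.59 to 1.47 (limma adjusted p 0.00865). It was 1.11 between libraries numbered 1 and 0.94 between those numbered 2. With a pseudocount of 0.1 the log2 difference was 1.503. The values correspond to about 11.1 and 12 reads with DMSO and 34.0 and 35.3 reads with JG342, an estimate from the steps between low values. The mean of either group alone was above the filter of 1 TPM. SERPINH1 was among the least abundant fitted genes, at the 7.53 percentile of mean level.

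**Figure D2:**
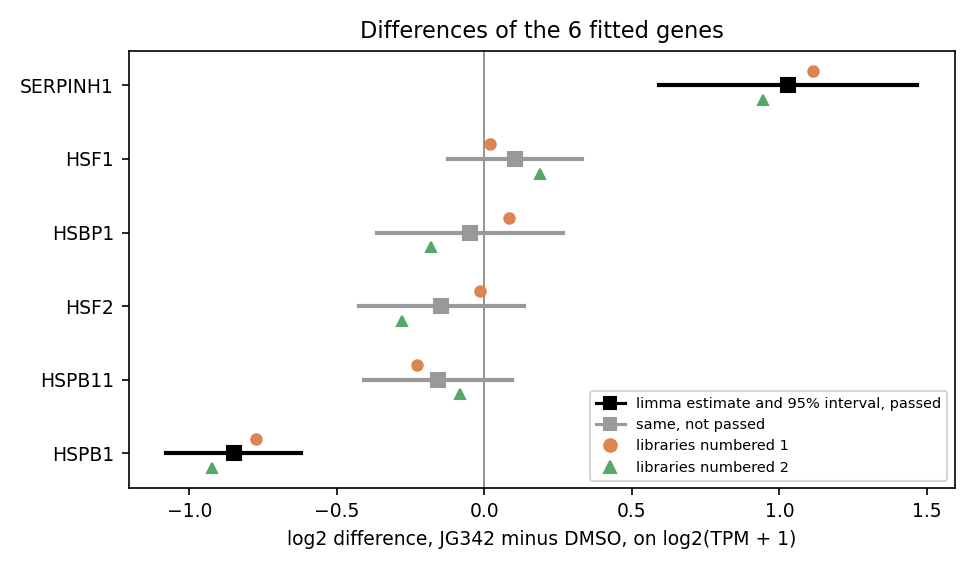
Log2 difference on log2(TPM + 1), JG342 minus DMSO (horizontal axis), for the 6 fitted members (vertical axis). Squares and bars are limma estimates with 95% intervals, black where the adjusted p was under 0.05; orange circles and green triangles are the differences within libraries numbered 1 and 2. The intervals of SERPINH1 (0.59 to 1.47) and HSPB1 (−1.08 to −0.62) lie on opposite sides of 0, and the other 4 include 0.

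SERPINH1 acts on procollagen, so genes of collagen and of its maturation were read beside it. Of 21 listed symbols 18 were in the table, and 13 were fitted. Transcripts of the collagens read here were near absent. COL1A1, COL1A2 and COL4A2 were at or below 0.22 TPM and COL5A1 at or below 0.92 TPM in every library. The listed collagens COL3A1 and COL4A1 were not found in the table, and further collagens were not read. Of the 13 fitted genes, 2 passed as lower and none as higher, a share of 15.4% beside 18.4% of all fitted genes. PLOD1, a lysyl hydroxylase, measured 35.4 and 28.9 TPM with DMSO and 21.7 and 17.5 TPM with JG342, and fell by 0.69 ± 0.15 SE in log2 units (limma adjusted p 0.0146). COLGALT1, a collagen galactosyltransferase, measured 50.8 and 52.9 TPM with DMSO and 35.8 and 37.0 TPM with JG342, and fell by 0.50 ± 0.11 SE (limma adjusted p 0.0133). The median of the 13 genes was 0.08, against 0.03 for all fitted genes. With the replicate number as a block, 4 passed, 2 in each direction (30.8%, beside 34.9%), so the list as a whole lay near the background. Neither gene passed without DMSO replicate 1, and PLOD1 alone passed without DMSO replicate 2.

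HSPB1 and SERPINH1 are both counted among HSF1 targets, so 30 further genes named as such were read from the same fit. The list was drawn up with earlier results of these data known, and it is no independent evidence of a direction. Of the 30 genes 29 were in the table and 27 were fitted. Of these, 15 passed, all of them lower with JG342, a share of 55.6% against 18.4% of all fitted genes. With the replicate number as a block 17 passed, all lower, a share of 63% beside 34.9% of all fitted genes. The median log2 difference was −0.36, against 0.03 for all fitted genes, and it was −0.38 between libraries numbered 1 and −0.43 between those numbered 2. The difference of HSPB1 (−0.85) was below the lowest value in the list (−0.78), and that of SERPINH1 (1.03) above the highest (0.04). A difference between these genes and the list was not tested.

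The 3 largest falls in the list were those of HSP90AA1, CHORDC1 and HSPH1. HSP90AA1, the inducible cytosolic HSP90, measured 642.8 and 600.2 TPM with DMSO and 374.7 and 349.4 TPM with JG342, a log2 difference of −0.78 ± 0.09 SE (limma adjusted p 0.00123). CHORDC1, a co-chaperone of HSP90, measured 49.8 and 37.0 TPM with DMSO and 28.7 and 22.9 TPM with JG342, a difference of −0.72 ± 0.16 SE (limma adjusted p 0.0182). HSPH1, a nucleotide exchange factor of HSP70, measured 78.7 and 71.6 TPM with DMSO and 49.9 and 41.7 TPM with JG342, a difference of −0.71 ± 0.12 SE (limma adjusted p 0.00595). HSP90AA1 and CHORDC1 each have a pseudogene that matches part of the transcript at over 95% identity, so their levels are uncertain. The stress-inducible HSP70 gene HSPA1B measured 139.2 and 181.7 TPM with DMSO and 97.4 and 122.5 TPM with JG342, a difference of −0.54 ± 0.15 SE (limma adjusted p 0.0383). HSPA1B did not pass without DMSO replicate 2 (−0.35, limma adjusted p 0.246), without JG342 replicate 1 (−0.37, 0.146), without the filter on low values (0.144), after quantile normalization (0.0748) or without the mean-variance trend (0.0998). CHORDC1 did not pass without DMSO replicate 1, without the filter or without the trend. The near-identical copy of HSPA1B, HSPA1A, stood at 9.90 and 8.97 TPM with DMSO and 8.69 and 6.31 TPM with JG342 (limma adjusted p 0.253), and reads are split between these copies without certainty. The number that passed was 7 without DMSO replicate 1 and 5 without DMSO replicate 2, and it was 7 without the filter on low values and 7 without the mean-variance trend. In each of these settings all that passed were lower.

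**Figure D3:**
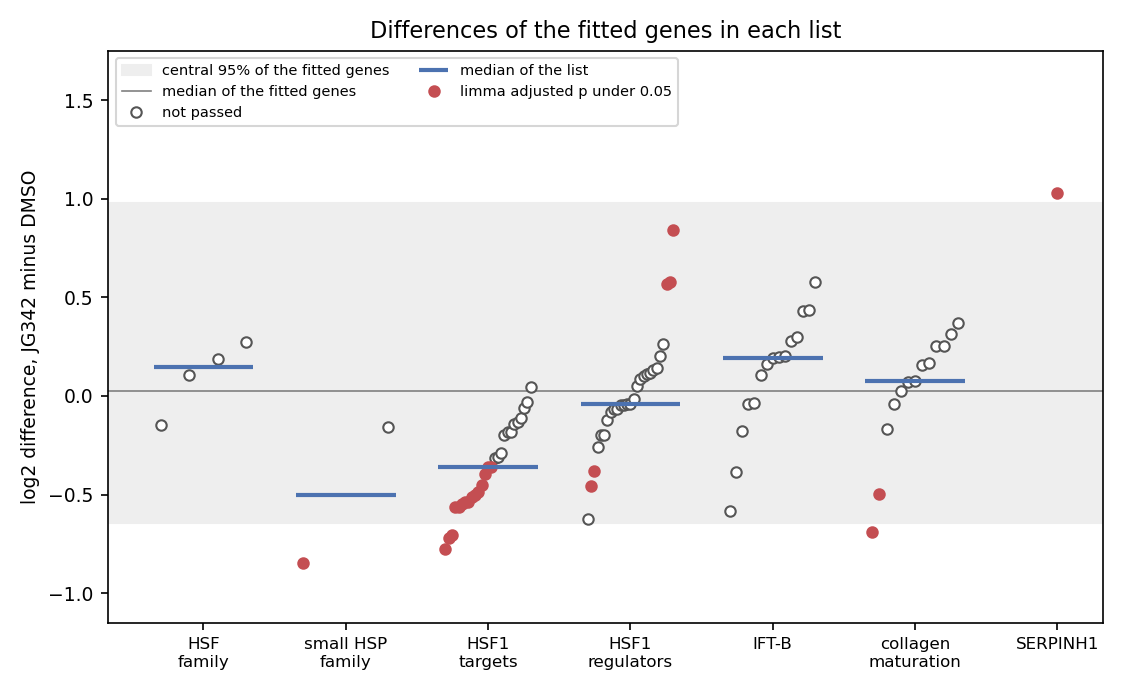
Log2 difference, JG342 minus DMSO, on log2(TPM + 1) (vertical axis) of the fitted genes in each list (horizontal axis), with SERPINH1 on its own at the right. Red points passed at a limma adjusted p under 0.05, open points did not, blue lines are list medians and the grey band holds the central 95% of the fitted genes. In the HSF1 target list 15 of 27 genes passed, all lower, while SERPINH1 lies at 1.03.

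Regulators of HSF1 other than HSBP1 were mixed. Of 28 listed enzymes and binding partners all were in the table and 27 were fitted, and 5 passed, 3 higher and 2 lower, a share of 18.5% beside 18.4% of all fitted genes. With the replicate number as a block 7 passed (25.9%, beside 34.9%), 3 higher and 4 lower, so the balance of directions turned. The 2 added were PLK1, a mitotic kinase, at −0.63 (limma adjusted p 0.0854, and 8.59e-11 with the block), and SSBP1, at −0.26 (0.0659, and 0.00342 with the block), named after their values were seen. FBXW7, the substrate receptor of a ubiquitin ligase that marks HSF1 for degradation, measured 21.3 and 20.4 TPM with DMSO and 42.0 and 34.7 TPM with JG342. It rose by 0.84 ± 0.13 SE in log2 units (limma adjusted p 0.00383). HDAC6, a cytoplasmic deacetylase, rose by 0.58 ± 0.12 SE (limma adjusted p 0.0115), with 19.4 and 20.7 TPM against 29.7 and 30.9 TPM. CSNK2A2, a catalytic subunit of casein kinase 2, rose by 0.57 ± 0.11 SE (limma adjusted p 0.0108), with 34.1 and 33.8 TPM against 54.4 and 47.5 TPM. The 2 that fell were the kinase MAPK3 and the ATPase VCP, at −0.46 and −0.38 (limma adjusted p 0.0198 and 0.0187). HSBP1L1, a paralog of HSBP1, measured 19.6 and 19.5 TPM with DMSO and 21.5 and 23.8 TPM with JG342 (limma adjusted p 0.286). FBXW7 passed with any 1 library left out, whereas HDAC6, CSNK2A2, MAPK3 and VCP each failed to pass without DMSO replicate 1 and without DMSO replicate 2. The count was 2 without DMSO replicate 1 and 1 without DMSO replicate 2. It was also 2 without the filter on low values, and 3 without the mean-variance trend.

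**Figure D4:**
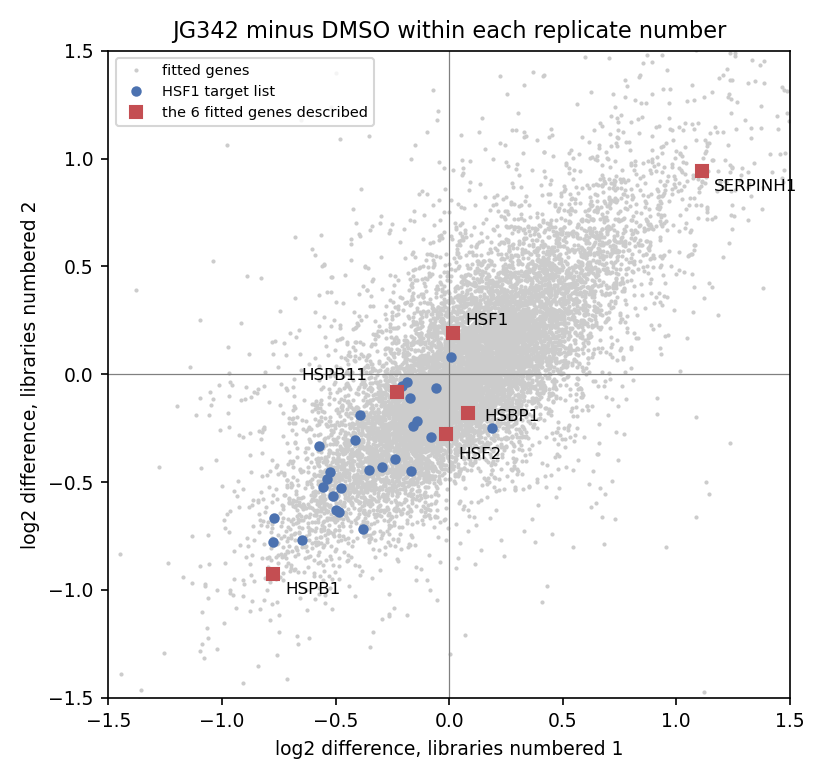
Log2 difference, JG342 minus DMSO, within libraries numbered 1 (horizontal axis) and numbered 2 (vertical axis), on log2(TPM + 1); grey points are fitted genes, blue points the HSF1 target list and red squares the 6 fitted members. HSPB1 is low in both pairs (−0.77 and −0.92) and SERPINH1 high in both (1.11 and 0.94), and 176 of 12042 genes lie outside the axes.

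The long heat shock element pattern was then read against the differences. Of the fitted genes with a promoter entry 41 held it, SERPINH1 among them, and 10 of the 41 passed, 3 higher and 7 lower, a share of 24.4% beside 18.4% of all fitted genes. The HSF1 target list supplied 7 of the 41 genes and 5 of the 10 that passed, all 5 lower. The share is thus not that of the pattern apart from this list. The median log2 difference of the 41 was −0.10. Besides SERPINH1, the higher genes were MAP2, a microtubule-associated protein, and ST3GAL5, a sialyltransferase that makes a ganglioside. MAP2 measured 1.93 and 2.11 TPM with DMSO and 21.6 and 22.7 TPM with JG342 (limma adjusted p 3.03e-05), and ST3GAL5 67.7 and 61.6 TPM against 113.1 and 88.8 TPM (limma adjusted p 0.0125). The lower ones were CHORDC1, DNAJB6, HSP90AA1, HSP90AB1 and HSPA8 from the target list, and HNRNPA2B1 and MRPL51 from outside it. As for HSP90AA1 and CHORDC1, a pseudogene matches part of the HSP90AB1 transcript (84.2%, at 97.1% identity) and of the DNAJB6 transcript (46.1%, at 99.2% identity). Their levels are uncertain too. These genes were named after their values were seen. Target genes with the long pattern that did not pass were HSPA6, at 1.35 to 1.71 TPM over all libraries, and HSPD1, at 981.2 to 1037 TPM. HSPB1, with a short match only, had a lower log2 difference (−0.85) than each of the 7 target genes that held the long pattern.

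**Figure D5:**
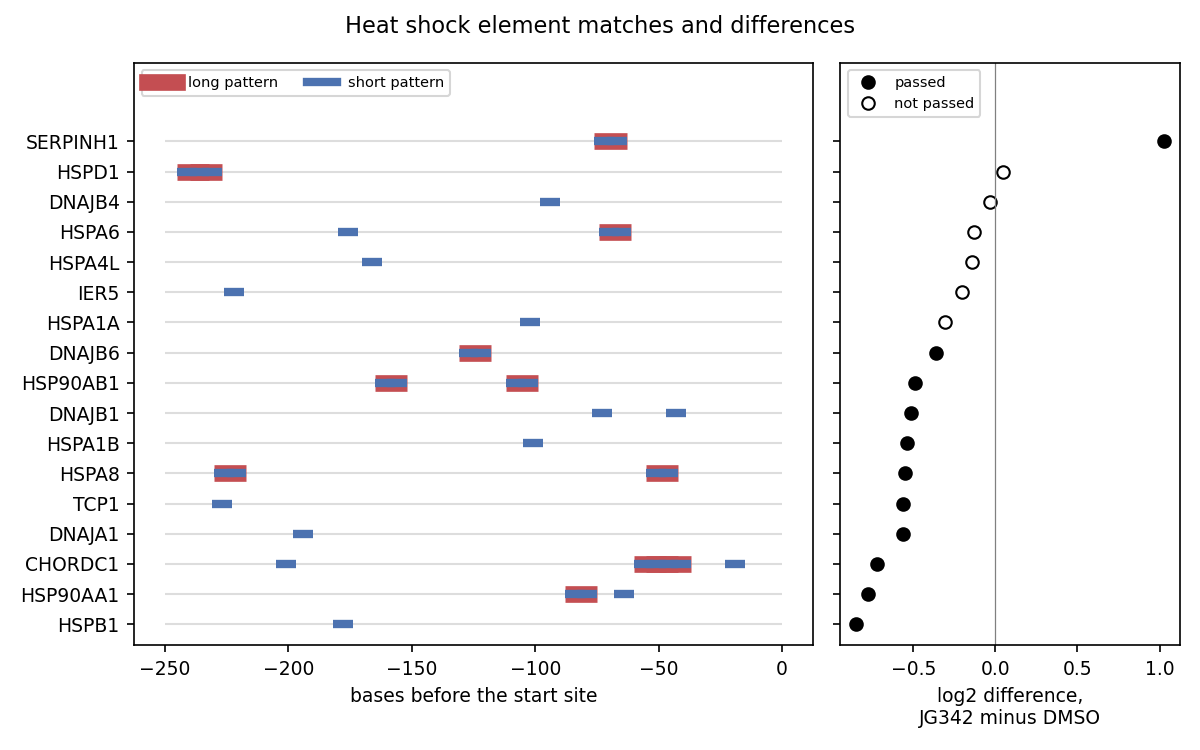
Left, positions of pattern matches in the 250 bases before any listed start site (horizontal axis, bases). Shown are the 17 fitted genes among the members and the HSF1 target list that held a match, 2 of them members. Right, log2 difference, JG342 minus DMSO, of the same genes, filled where the limma adjusted p was under 0.05. SERPINH1, with a long match at 76 to 64 bases, is at 1.03, while the others lie between −0.85 and 0.04.

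For each fitted member, the genes with the most similar pattern over the 4 libraries were found by the root mean square distance between centred log2(TPM + 1) values, among 8328 other genes whose mean reached 10 TPM (8329 for SERPINH1). The measure selects genes with a like difference, so the values given for them describe the selection and are no further evidence. The nearest to HSPB1 were JCHAIN (distance 0.0215), LDHA (0.0288) and TUBA4A (0.0292). JCHAIN, the joining chain of secreted IgM and IgA, measured 9907 and 10384 TPM with DMSO and 5732 and 5431 TPM with JG342. LDHA, the lactate dehydrogenase A subunit, measured 1576 and 1658 TPM against 904.3 and 919.7 TPM. The nearest to SERPINH1 were ELMOD1 (0.0177), CYP2R1 (0.0255) and NADK2 (0.0325). CYP2R1, a vitamin D 25-hydroxylase, measured 31.6 and 34.2 TPM with DMSO and 73.0 and 66.7 TPM with JG342. NADK2, the mitochondrial NAD kinase, measured 22.0 and 22.3 TPM against 48.9 and 43.3 TPM.

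For the other members the nearest genes are given by name and distance alone, since the measure itself selects genes with a like difference. For HSF1 these were PLPP1 (0.0126), CLINT1 (0.0127) and MRPL45 (0.0168), and for HSF2 they were IPO9 (0.00347), CHD8 (0.00751) and BAP1 (0.00753). For HSPB11 they were BCS1L (0.00542), GPATCH1 (0.00670) and CEP131 (0.0129), and for HSBP1 they were LCMT2 (0.00713), THAP4 (0.0107) and CRAMP1 (0.0152). A likeness over 4 libraries is a description, and how many further genes lie close to each member was not counted. LDHA, TUBA4A, PLPP1, MRPL45 and CRAMP1 share sequence with another annotated transcript, so their levels are uncertain.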

How the data were processed

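RNA from 4 libraries of MM.1S cells (2 with DMSO, 2 with JG342) was measured by RNA sequencing. The authors deposited 1 value per gene and library, and these were read as TPM because the libraries sum to nearly the same total (994463 to 994718); no header gives the unit. HISAT2 2.0.4, Bowtie2 2.2.5 and RSEM 1.2.12 are named, per the submitters' processing notes, with no role. The genome build, annotation and filters are not given in the sources used here.

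Values were transformed to log2(TPM + 1). Genes whose mean over the 4 libraries reached 1 TPM (12042, leaving out 4015) entered a linear model of treatment alone in limma 3.58.1 under R 4.3.3, with variances moderated along a mean-variance trend. P-values were two-sided and adjusted over all fitted genes by the Benjamini-Hochberg method. Residual and prior degrees of freedom were 2 and 6.89. The fit was tried on simulated data with 200 genes changed by 1.5 in log2 units among 12010 fitted. It recovered 100% of these, and 2.91% of its calls were false. HSPB1 (−0.85) and SERPINH1 (1.03) differed by less than 1.5 in size, so these shares do not describe changes as small as theirs.

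TPM keeps no depth, so an approximate worth of a read was taken from the most frequent product of value and transcript length among values up to 0.5 TPM in transcripts of at least 1500 nt (GENCODE release 29). It was 0.202 to 0.229 TPM for 1 read in 1000 nt, or 8650000 to 9580000 reads per library. It entered no test. BLAST 2.17.0 served to find near-identical transcripts, at 95% identity over at least 20% of the transcript.

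Same-numbered libraries share a prefix in their descriptions, which may pair them, though the labels state no model. Their deviations from the treatment means correlated across genes at a Pearson r of 0.275. The main fit left this possible pairing out, so its standard errors, intervals and p-values do not use it. A fit with the replicate number as a block was an alternative, as were other pseudocounts, filters, scalings and variance priors, and leaving out each library. The members and lists were chosen with earlier results of these data known. Named by rule were all members and the other genes of both families, up to 3 that passed in each direction per list, HSPA1A and HSPA1B, and the 3 nearest genes of each member. Further genes were named outside this rule, among them IFT27, IFT20, CLUAP1, HSBP1L1, PLK1, SSBP1, single collagens and cell type markers, and genes with the long pattern.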

Additional observations from a re-analysis of the deposited data

How the results depend on the processing

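HSPB1 and SERPINH1 kept their direction and passed under each alternative in which they were fitted, with any 1 library left out as well. With a filter at a mean of 5 TPM SERPINH1 was not fitted, and 1 member passed. Leaving out 1 library in turn, HSPB1 ran from −0.90 to −0.79 (limma adjusted p 0.00187 to 0.0150) and SERPINH1 from 0.98 to 1.08 (0.0182 to 0.0440), and the number of members that passed stayed at 2. Where 1 library is left, it is assumed to vary like the others.

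The count over all genes went from 2221 to 828 without the filter, to 4207 with the replicate block and to 3985 with the replicate block and equal medians. It ran from 773 to 1905 with 1 library left out. The HSF1 target count of 15 was 7 without the filter and 7 without a trend, and ran from 5 to 13. The HSF1 regulator count of 5 was 2 without the filter, 3 without a trend and 9 with the replicate block and equal medians, and ran from 1 to 5. The collagen maturation count of 2 was 1 without the filter and 4 with the replicate block, and ran from 0 to 2. The intraflagellar transport count of 0 was 1 at a mean of 5 TPM, 1 with robust eBayes, and 4 with the replicate block, with or without equal medians; it ran from 0 to 1. The filter changes which genes are tested and left-out libraries reduce the samples; for the other settings the cause was not tested. The replicate block alone gave 7 for the regulators and 17 for the targets, and changed no call for a member; its variance prior was infinite, so each variance was set by level alone, while with equal medians the prior had 7.49 degrees of freedom. The sign turned for HSBP1 without DMSO replicate 2 (0.11), and for HSF4 without DMSO replicate 2 (−0.09) and without JG342 replicate 1 (−0.16), all far from the threshold. With 1 library left out HSBP1 ran from −0.21 to 0.11 and HSF4 from −0.16 to 0.53. HSF1 ran from 0.03 to 0.18, HSF2 from −0.23 to −0.06 and HSPB11 from −0.27 to −0.04, each without a call.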
